A study of Mus musculus with 6 samples.

Results

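The contractile smooth muscle genes described here are the 10 genes Acta2, Actg2, Tpm2, Cnn1, Tagln, Lmod1, Myh11, Myl9, Mylk and Des, given as a list and found by Ensembl identifier in all 6 count tables, where they were 10 of the 14338 genes analysed. Their levels were read in myofibroblasts, fibroblasts and mural cells of the mouse bladder mucosa, the inner layer of the bladder wall. Droplet-based 3' single-cell RNA sequencing was applied to wild type C57BL/6 mice of 8 weeks, with 2 libraries each from healthy mice, from mice 48 h after cyclophosphamide (CPP) and from mice given 4 rounds of CPP over 11 days. CPP is a cytotoxic drug whose breakdown product acrolein injures the urothelium, and these groups are called healthy, acute and chronic. All 6 libraries came from the mucosal layer torn off the bladder and digested with collagenase IV and DNase I. The study calls the 2 libraries of a condition biological replicates. How animals were divided among the libraries was not analysed here. The methods text speaks of batches without saying which library was in which, so no batch was entered in a fit.

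Smooth muscle shortens when myosin filaments pull on actin filaments that are anchored in dense bodies and in the cell membrane. Calcium bound to calmodulin activates myosin light chain kinase, which phosphorylates the regulatory light chain and so switches the myosin motor on. Tropomyosin, calponin and leiomodin sit on the thin filament, and desmin forms the intermediate filaments that tie the dense bodies together. Many of these genes carry a CArG box, a short element bound by serum response factor with its partner myocardin. Myofibroblasts make part of the same set, above all smooth muscle actin, while mature smooth muscle makes the whole of it. Mural cells are the vascular smooth muscle cells and pericytes around blood vessels, and pericytes make only some of these genes.

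By role, the members are 2 actins, Acta2 and Actg2, then 4 genes of the thin filament, Tpm2, Cnn1, Tagln and Lmod1, then 3 genes of the motor, Myh11, Myl9 and Mylk, and the intermediate filament gene Des. On the GRCm38 build they lie apart on the genome, Acta2 at chr19:34241090-34255590 (minus strand), Actg2 at chr6:83512905-83536265 (minus), Tpm2 at chr4:43514711-43523765 (minus), Cnn1 at chr9:22099216-22109630 (plus) and Tagln at chr9:45929619-45936058 (minus). Lmod1 lies at chr1:135324807-135368065 (plus), Myh11 at chr16:14194535-14291372 (minus), Myl9 at chr2:156775420-156781658 (plus), Mylk at chr16:34745210-35002420 (plus) and Des at chr1:75360329-75368579 (plus). All 10 are annotated as protein coding. Sequencing reads the 3' end, and none of the 50-base windows in the last 300 bases of their annotated transcripts was found in a transcript of another gene, so the close paralogs Acta2 and Actg2 could be counted apart.

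Because the members are textbook targets of serum response factor, the 250 bases before the start of each gene were searched for the CArG box. RefSeq promoter sequences (GRCm38.p6) were at hand for 7 members, Acta2, Cnn1, Des, Lmod1, Myl9, Mylk and Tpm2. The box was searched as a 10-base motif that reads the same on both strands, exactly and with at most 1 mismatch. It was present exactly in 1 of the 7, against 1.47% of 32851 mouse promoters of this length, and with at most 1 mismatch in 3 of the 7, against 18.6%. The 6 matches follow, each with its box in capitals inside 30 bases and read 5' to 3' on the strand of the gene.
Acta2, chr19:34255438-34255467, 84 bases before the RefSeq start, 1 mismatch: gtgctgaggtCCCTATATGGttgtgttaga
Acta2, chr19:34255388-34255417, 34 bases before the start, 1 mismatch: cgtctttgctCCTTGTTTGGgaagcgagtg
Lmod1, chr1:135324614-135324643, 189 bases before the start, 1 mismatch: gcccccttgtCTTTAAAAGGctaaactgct
Lmod1, chr1:135324639-135324668, 164 bases before the start, 1 mismatch: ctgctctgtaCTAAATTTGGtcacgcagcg
Myl9, chr2:156775293-156775322, 161 bases before the start, exact: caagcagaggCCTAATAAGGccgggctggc
Myl9, chr2:156775355-156775384, 99 bases before the start, 1 mismatch: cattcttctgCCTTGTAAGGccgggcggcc
The matches of Acta2 lie inside the gene as the other annotation used here places its start, which is farther upstream. A match is a description of the letters, and none was found in the windows of Cnn1, Des, Mylk and Tpm2, which says only that these letters are not in these windows.

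After filtering and removal of called doublets, 50796 cells remained, of which 4535 were myofibroblasts, 5381 fibroblasts and 168 mural cells, beside 38195 urothelial cells. The myofibroblasts were named from Car3, Cxcl14 and 4 other markers, the fibroblasts from Cd34, Mfap5, Pi16 and others, and no member was used to form or name a class. The marker sum of the myofibroblast list ranged from 6932 to 17517 CPM (UMIs of a gene per 1000000 UMIs of a class in a library) in myofibroblasts and from 291 to 1775 in fibroblasts. The mural cluster was led by Pln and Higd1b, carried markers of pericytes (Rgs5 at 487 and 2041 CPM in the acute libraries) and had at least 20 cells only in the 2 acute libraries. It numbered 12 and 14 cells in the healthy, 20 and 113 in the acute and 3 and 6 in the chronic libraries. Detrusor muscle could not be told apart from vascular smooth muscle within it.

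The libraries held 54604109 to 111985678 UMIs (unique molecular identifiers, 1 per captured mRNA), and 3 of them stood apart. Acute replicate 2 gave 2831 of the 4535 myofibroblasts, was counted with a newer gene set, and carried more mesenchymal RNA in its urothelial cells, where Acta2 stood at 44.1 CPM against 3.04 to 6.18 in the other 5 libraries. Genes seen in fewer than 8 cells of healthy replicate 1 or 6 cells of acute replicate 1 are missing from their tables, a limit that the other 4 libraries do not have. Myofibroblasts numbered 1028 and 339 in healthy, 164 and 2831 in acute and 71 and 102 in chronic replicates 1 and 2, so the chronic values rest on few cells. Libraries shared 36 to 208 cell barcodes pair by pair, 0.673% to 2.04% of the smaller library.

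Levels below are in CPM, given in the order healthy 1, healthy 2, acute 1, acute 2, chronic 1 and chronic 2. They compare classes and libraries for 1 gene. Of the 10 members, 9 were higher in myofibroblasts than in fibroblasts in all 6 libraries. Des was lower in all 6, but on few UMIs. It was nearly equal in acute replicate 1 (4.48 against 4.52 CPM) and rested on 1 UMI in each class in chronic replicate 2. Over all genes with a mean of at least 20 CPM in either class compared, a level that 9 members reached and Des did not, 10.8% were higher in myofibroblasts in every library. The median paired difference on the log2(CPM + 1) scale was 3.65 for these 9 members and -0.04 for all genes past that minimum. Library by library the median of the members was 3.01, 4.04, 3.76, 3.58, 4.61 and 2.80 (SD 0.67, n = 6), and it ran from 3.53 to 3.76 when any 1 library was left out. Classes came from clustering the same cells, so no test stands beside these differences.

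Acta2, smooth muscle alpha-actin and the usual protein marker of myofibroblasts, stood at 868, 1871, 704, 1605, 1637 and 384 CPM in myofibroblasts. In fibroblasts it stood at 76.5, 63.0, 65.5, 120.3, 65.5 and 55.2 CPM. The lowest myofibroblast library lay above the highest fibroblast library, and mural cells of the acute libraries held 3144 and 9653 CPM.

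Actg2, the gamma-actin typical of visceral smooth muscle, stood at 214, 886, 211, 536, 766 and 265 CPM in myofibroblasts and at 19.0 to 39.0 CPM in fibroblasts. It was the 1 member that was not higher in mural cells, where the acute libraries gave 212 and 272 CPM against 211 and 536 in myofibroblasts of the same libraries. The paired differences of mural from myofibroblast levels were 0.01 and -0.98 on the log2(CPM + 1) scale, within the spread of Actg2 between libraries.

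Tpm2, the beta-tropomyosin that covers the myosin binding sites of actin, was the least restricted member. It stood at 874, 929.7, 683, 914, 784 and 419 CPM in myofibroblasts, at 299, 337, 338, 364, 247 and 163 in fibroblasts and at 2085 and 3654 in mural cells of the acute libraries. Its median paired difference between myofibroblasts and fibroblasts was 1.41, the smallest among the 9 higher members, and urothelial cells held 79.0 to 143 CPM in every library.

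Cnn1, calponin, an actin-bound inhibitor of the myosin motor found in differentiated smooth muscle, varied most. It stood at 4.68, 235, 8.97, 72.4, 104.5 and 35.0 CPM in myofibroblasts, from 20, 205, 6, 789, 18 and 12 UMIs. Healthy replicate 1 and acute replicate 1 lay below all other libraries. Mural cells of these same libraries, only 12 and 20 in number, carried Cnn1 at 335 and 159 CPM. Fibroblasts held 0 to 13 UMIs of it per library.

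Tagln (transgelin, or SM22), which cross-links actin, stood at 527, 1820.5, 423, 1557, 929 and 772 CPM in myofibroblasts. Fibroblasts held 35.5, 105, 18.1, 134, 35.1 and 67.5 CPM, and mural cells of the acute libraries 2921 and 8760.3 CPM. Its median paired difference between myofibroblasts and fibroblasts was 3.98. Lmod1, leiomodin, which starts new actin filaments in smooth muscle, stood lower, at 15.7, 41.3, 29.9, 110.5, 92.9 and 17.5 CPM in myofibroblasts, at 0.753 to 8.26 in fibroblasts and at 169 and 489.7 in mural cells of the acute libraries.

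Myh11, the smooth muscle myosin heavy chain, stood at 55.7, 132.0, 68.8, 162, 63.8 and 81.6 CPM in myofibroblasts and at 0 to 6.14 CPM in fibroblasts. Mural cells of the acute libraries held 539.8 and 1543 CPM, a paired difference of 2.95 and 3.25 from myofibroblasts. Myh11 was thus present in myofibroblasts of every library, below the mural level.

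Myl9, the regulatory light chain that the kinase phosphorylates, stood at 924, 771, 643, 1156, 1033 and 288 CPM in myofibroblasts. Fibroblasts held 25.6 to 96.9 CPM and mural cells of the acute libraries 2212 and 6711. Mylk, the kinase itself, was the steadiest member in myofibroblasts, at 493, 379.9, 507, 498, 331 and 373 CPM. In fibroblasts Mylk stood at 27.9 to 92.1 CPM and in urothelial cells at 30.3 to 50.6, and these ranges overlap.

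Des, the desmin gene, parted from the rest. In myofibroblasts it was counted 19 times in all, as 7, 1, 3, 7, 0 and 1 UMIs, or 0 to 4.48 CPM, and in fibroblasts it stood at 3.07 to 5.25 CPM. Mural cells of the acute libraries held 402 and 720.1 CPM. The myofibroblasts therefore carried actin, tropomyosin, light chain and kinase transcripts together with Myh11 and almost none of Des. Pln, the phospholamban gene that led the mural cluster, had 0 UMIs in myofibroblasts of 4 libraries and at most 8.97 CPM in the others. Mural cells of the acute libraries held 455 and 1263 CPM of it. Leading genes were picked for a high level against all other clusters, so this contrast follows in part from the choice of Pln.

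**Figure D1:**
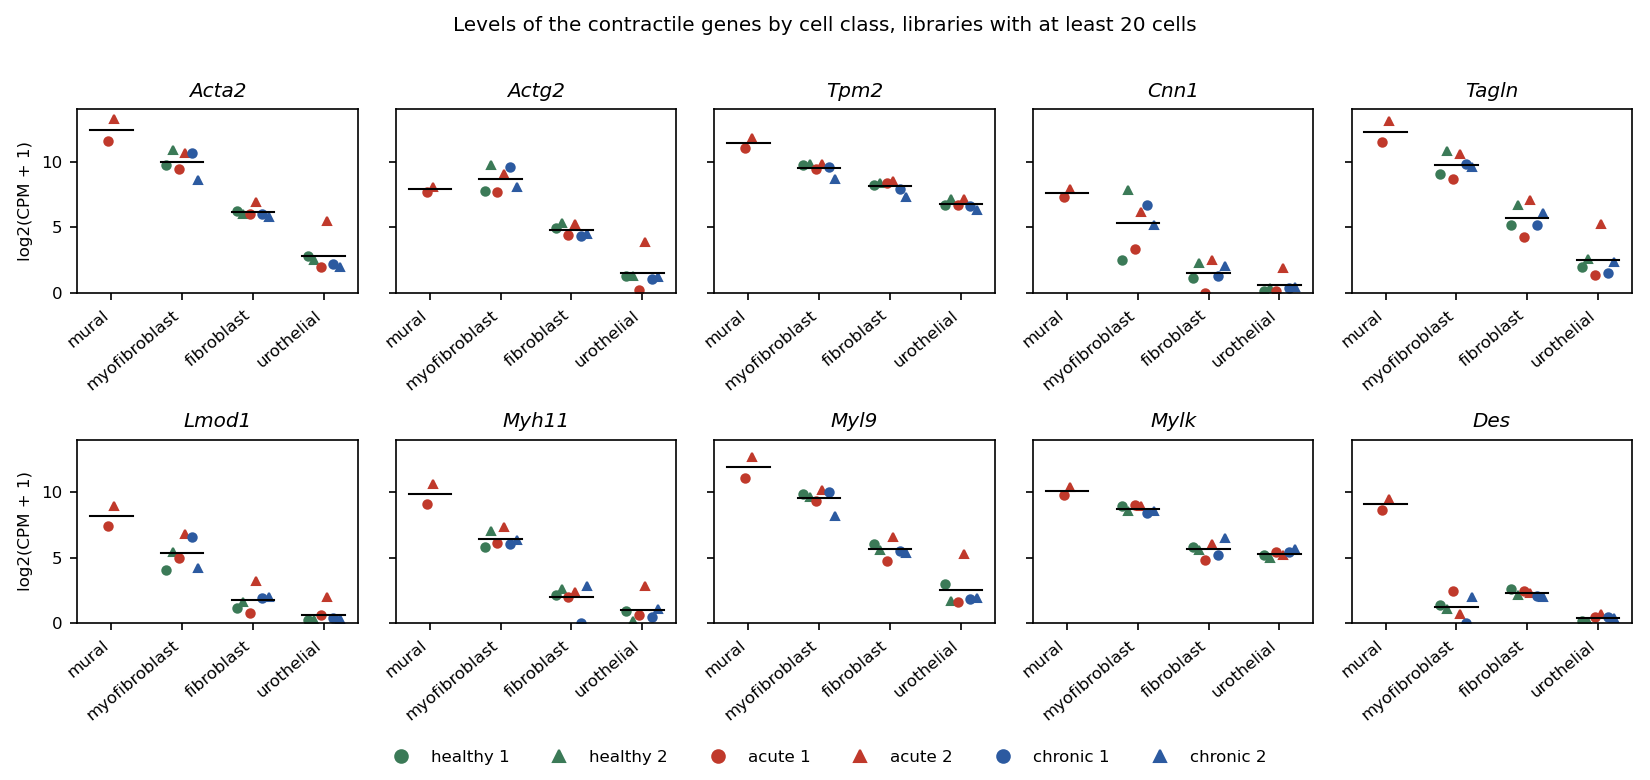
Level of each contractile gene (log2 of CPM + 1) in mural cells, myofibroblasts, fibroblasts and urothelial cells, 1 point per library with at least 20 cells of the class and a bar at the mean of the libraries. For 8 genes the means fall in the order mural, myofibroblast, fibroblast, urothelial, with overlapping fibroblast and urothelial points for Cnn1, Tagln, Lmod1, Myh11, Myl9 and Mylk, while Actg2 is as high in myofibroblasts as in mural cells and Des lies at 5.25 CPM or less in all but mural cells.

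Across classes, 9 of the 10 members were higher in mural cells than in myofibroblasts in both acute libraries, with Actg2 the exception, against 36.8% of genes with a mean of at least 20 CPM in either class. The members' median paired difference was 2.34, against 0.08 for these genes. Over urothelial cells, 9 members were higher in myofibroblasts in all 6 libraries, again without Des (28.1% of genes past the same minimum). In fibroblasts 5 of the 6 members past that minimum were higher than in urothelial cells in all 6 libraries (28.9%), Mylk being the exception in 2 libraries. Of the rarer members, Lmod1 and Des were higher in fibroblasts in all 6 libraries, Cnn1 in 5 and Myh11 in 4. Mural cells of the healthy and chronic libraries were too few to compare and are given as values. With 12, 14, 3 and 6 cells, Acta2 stood at 10878, 7371, 2523 and 747 CPM and Myh11 at 1653, 1743, 631 and 269 CPM. Summed, the members made up 0.264% to 0.707% of the UMIs of myofibroblasts, 0.0454% to 0.0837% of those of fibroblasts and 0.0143% to 0.0324% of those of urothelial cells. The share in mural cells ran from 0.350% to 3.34%.

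Shares of cells with a UMI were compared as well. To set classes of unequal depth side by side, each cell was thinned to 2000 UMIs and cells below that were left out, between 0 and 170 myofibroblasts, 0 and 701 fibroblasts and 21 and 1083 urothelial cells per library. The fibroblasts left out were 701 of 1314 in chronic replicate 1, 647 of 1485 in healthy replicate 2 and 498 of 1223 in acute replicate 2, against at most 1 in each of the other libraries. The myofibroblasts left out were 24 of 71 in chronic replicate 1, 83 of 339 in healthy replicate 2 and 170 of 2831 in acute replicate 2, so the thinned shares of these libraries rest on their deeper cells. An Acta2 UMI was then present in 61.9% of myofibroblasts (mean of 6 libraries), 8.24% of fibroblasts (highest 13.9%) and 1.96% of urothelial cells. Urothelial cells should lack the gene, and free RNA can give such cells a share. Other classes stood higher, macrophages at 2.40% (6 libraries, highest 7.66%) and endothelial cells at 3.26% (5 libraries, highest 10.1%). NK and T cells stood at 4.62% (3 libraries, highest 11.8%). Thinning left only 48 and 25 of these cells in healthy replicates 1 and 2 and 17 in acute replicate 2, the library with the highest share. The median depths before thinning were 2176 to 3904 UMIs in myofibroblasts, 1966.5 to 3407 in fibroblasts and 3842 to 5209 in urothelial cells. Unthinned, the shares in myofibroblasts, fibroblasts and urothelial cells were 65.3%, 10.4% and 5.21%. The urothelial means were carried by acute replicate 2, at 7.71% thinned and 20.6% unthinned, and without it they were 0.805% and 2.13% over 5 libraries.

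Myl9, Tagln and Tpm2 were found in 62.9%, 61.1% and 67.6% of thinned myofibroblasts, and Tpm2 also in 39.2% of fibroblasts and 21.0% of urothelial cells. Myh11 was found in 14.9% of thinned myofibroblasts against 0.595% of fibroblasts and 0.280% of urothelial cells, or 0.121% without acute replicate 2. Mylk was found in 50.4% of myofibroblasts, but its 8.42% of fibroblasts stood close to the 6.29% of urothelial cells. Des was found in 0.303% of myofibroblasts, 0.683% of fibroblasts and 0.0662% of urothelial cells, against 60.6% of mural cells in the 2 acute libraries.

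Actg2, Tagln and Myh11 were found more often in myofibroblasts that also held an Acta2 UMI than in those that did not. Of 2972 thinned myofibroblasts with an Acta2 UMI, 48.0% also had one of Actg2, 78.9% one of Tagln and 24.4% one of Myh11. Of the 1286 without Acta2, these shares were 16.7%, 38.3% and 9.33%. Of both sets together 2661 cells came from acute replicate 2, and cells with Acta2 exceeded those without it for all 3 genes within each of the 6 libraries. The same held in 6 of 6 libraries for Cnn1, Myl9, Mylk and Tpm2, in 5 for Lmod1 and in 3 for Des. At least 5 of the 10 members were found in 26.3%, 61.7%, 29.9%, 55.1%, 46.8% and 25.5% of thinned myofibroblasts, library by library, against 47.3%, 58.1%, 38.4%, 71.8%, 39.4% and 35.3% unthinned. In fibroblasts the highest share of any library was 2.21% thinned and 3.45% unthinned.

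**Figure D2:**
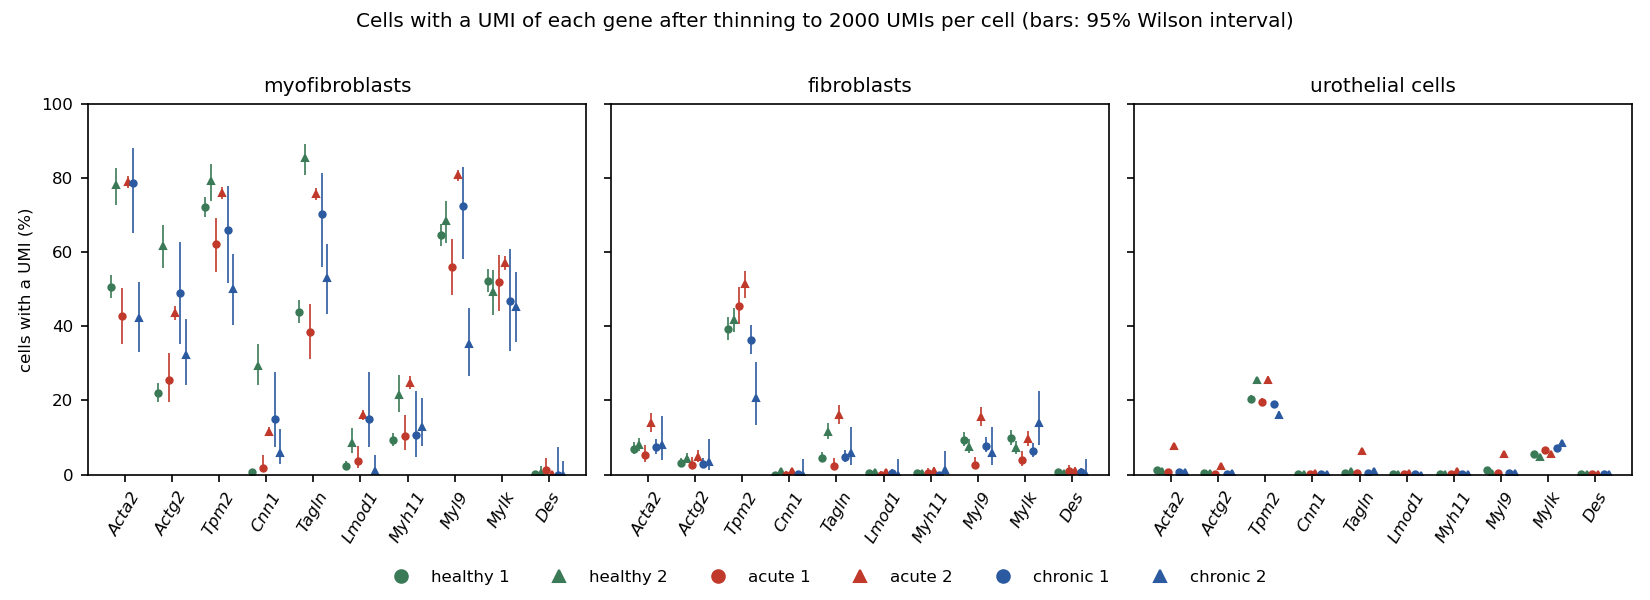
Percent of cells with at least 1 UMI of each gene after thinning to 2000 UMIs, in myofibroblasts, fibroblasts and urothelial cells, 1 point per library with its 95% Wilson interval. Acta2, Tagln, Myl9, Tpm2 and Mylk are found in 35.3% to 85.5% of myofibroblasts and Des in at most 1.22%, while the urothelial share of Acta2 is 7.71% in acute replicate 2 and lower elsewhere.

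The myofibroblasts fell into 4 sub-clusters, led by Mfap4, Fbxl22, Cxcl10 and Gatm. The summed level of the members averaged 3894 CPM in the Cxcl10-led sub-cluster (6 libraries), against 5506 CPM in the Mfap4-led and 6490 CPM in the Fbxl22-led one (5 libraries with at least 20 cells each). This order was not uniform, since the Cxcl10-led sub-cluster lay above the Mfap4-led one in both chronic libraries (with 5 Mfap4-led cells in chronic replicate 2) and above the Fbxl22-led one in chronic replicate 2. The Cxcl10-led sub-cluster made up 40.4%, 46.3%, 53.7%, 9.78%, 46.5% and 66.7% of the myofibroblasts, library by library, so acute replicate 2 had the lowest share. The Gatm-led one came almost all from acute replicate 2, with 643 cells there and at most 16 elsewhere, and its 4865 CPM lay below the 5705 CPM of the Cxcl10-led one in that library. Differences between libraries were also present within a sub-cluster, as in the Mfap4-led one, where Cnn1 stood at 1.07 CPM in healthy replicate 1 and 169.9 CPM in healthy replicate 2.

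Whether CPP injury moved the members was tested per class with edgeR's quasi-likelihood test over the 6 libraries, with Benjamini-Hochberg adjustment over all genes. None of the members passed in any comparison, in either class. In myofibroblasts 9 members were tested, Des being too low, and in fibroblasts 9 as well, Lmod1 being too low. Of all genes, 0.036% (3 of 8336) passed between acute and healthy myofibroblasts and 0.00893% (1 of 11193) between acute and healthy fibroblasts. Between chronic and healthy these shares were 0.0% (0 genes) and 0.00893% (1 gene), and between acute and chronic 0.0% in both classes. At an unadjusted p under 0.05, edgeR counted 198, 527 and 670 genes in myofibroblasts for acute against healthy, chronic against healthy and acute against chronic, with none of the members, and 296, 810 and 608 in fibroblasts, with 1 member. DESeq2 also called none of the members, and 7, 8 and 13 genes in myofibroblasts and 29, 48 and 24 in fibroblasts.

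**Figure D3:**
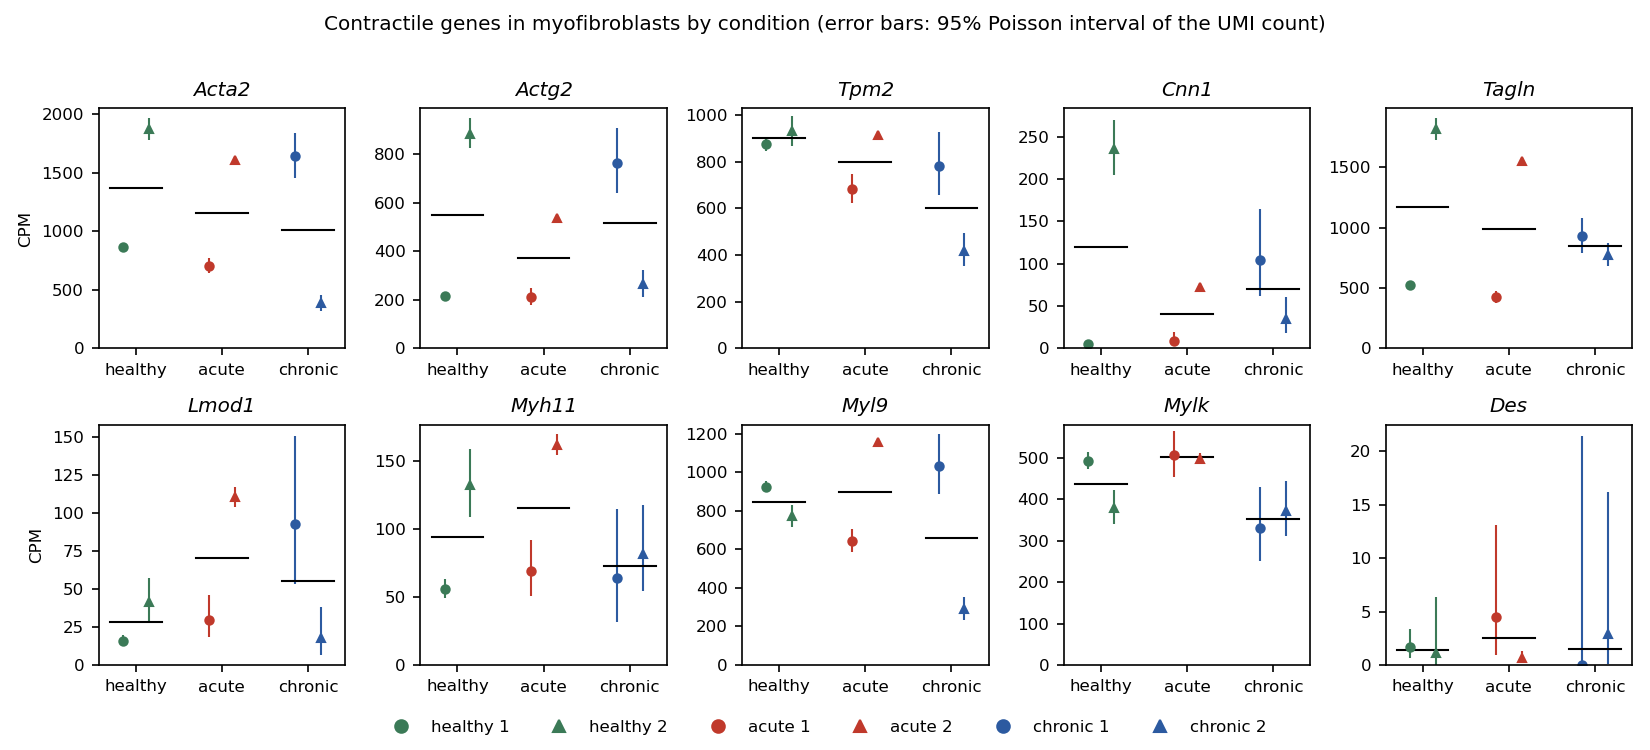
CPM of each contractile gene in myofibroblasts of the healthy, acute and chronic libraries, 1 point per library with the 95% Poisson interval of its UMI count (counting error only) and a bar at the mean of the 2 libraries. For Acta2 and Actg2 the 2 libraries of each condition lie farther apart than any 2 condition means, while Mylk stays between 331 and 507 CPM.

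The actins did not separate by condition. Acta2 averaged 1369.7 ± 709 CPM in healthy, 1154 ± 637 in acute and 1011 ± 886 in chronic myofibroblasts (SD, n = 2 libraries each). The edgeR log2 difference was -0.20 for acute against healthy (95% interval -1.66 to 1.26, adjusted p = 1.0) and -0.47 for chronic against healthy (-1.95 to 1.01, adjusted p = 0.948). Such intervals include a change of more than 2-fold either way. Actg2 averaged 550.3 ± 475, 373 ± 230.0 and 516 ± 354 CPM.

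Among the genes of the thin filament, Lmod1 had the largest difference of acute from healthy myofibroblasts, 1.53 on the log2 scale (SE 0.74, 95% interval -0.12 to 3.19), which did not pass edgeR's test (adjusted p = 1.0). Its libraries overlapped, at 15.7 and 41.3 CPM in healthy and 29.9 and 110.5 in acute myofibroblasts. Cnn1 had the widest interval, -4.18 to 1.62 around -1.28. Tpm2 averaged 902 ± 39.4, 799 ± 163 and 602 ± 258 CPM, and both chronic libraries lay below both healthy ones, with a log2 difference of -0.62 (SE 0.36, edgeR adjusted p = 0.819).

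Of the motor genes, Mylk had the narrowest intervals. It averaged 437 ± 80.2 CPM in healthy, 502 ± 6.17 in acute and 352 ± 29.7 in chronic myofibroblasts. Both acute libraries lay above both healthy and both chronic ones, but acute replicate 2 (498 CPM) and healthy replicate 1 (493 CPM) were nearly equal. The log2 difference of acute from chronic was 0.57 (SE 0.29, 95% interval -0.10 to 1.23, edgeR adjusted p = 0.662). Myh11 averaged 93.9 ± 53.9, 115 ± 65.7 and 72.7 ± 12.5 CPM and Myl9 848 ± 108, 899 ± 363 and 661 ± 527 CPM, with overlapping libraries throughout. Des, with 0 to 7 UMIs per library, allowed no comparison.

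Counted over the members tested in myofibroblasts, 1 lay above healthy in both acute libraries (Mylk, against 13.1% of all genes) and 2 lay below healthy in both chronic libraries (Tpm2 and Mylk, against 16.6%). None lay below healthy in both acute libraries (14.9% of all genes) or above healthy in both chronic ones (18.8%). Between acute and chronic, 1 was higher (Mylk, 17.7%) and none lower (20.3%). The members' median log2 difference was -0.14, -0.41 and 0.48 for acute against healthy, chronic against healthy and acute against chronic, against -0.02 to 0.00 for all genes. The first of these became 0.81 without healthy replicate 2, 0.27 without acute replicate 1 and -0.40 without acute replicate 2, so it had no stable direction. The second became 0.33 without healthy replicate 2 and -1.13 without chronic replicate 1, and the third -0.45 without acute replicate 2 and -0.08 without chronic replicate 2. The way cells were assigned also mattered. With mesenchymal cells gated by their own UMIs of the markers Car3, Cxcl14, Cd34, Mfap5 and Pi16, which left 52 myofibroblasts in healthy replicate 2 and 31 in chronic replicate 1, the medians were -0.31, -1.45 and 1.21. With cells clustered without integration they were -0.12, -0.0022 and 0.11, so the size of the chronic differences depended on the assignment. With the marker gates all 9 members were lower in chronic than in healthy and in acute myofibroblasts, and 6 of 9 had an unadjusted p under 0.05 in each of these comparisons, against 9.01% and 10.4% of all genes. None passed adjustment, the smallest edgeR adjusted p being 0.394 and 0.334, both for Tpm2.

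In fibroblasts, Tpm2 was the member with the smallest unadjusted p. It stood at 299 and 337 CPM in healthy, 338 and 364 in acute and 247 and 163 in chronic libraries. Healthy replicate 2 and acute replicate 1 were nearly equal, and both chronic libraries were below the other 4. Of all genes tested in fibroblasts, 19.1% were lower in both chronic than in both healthy libraries and 14.8% higher in both acute than in both chronic libraries. The log2 difference of acute from chronic was 0.84 (SE 0.37, 95% interval 0.00 to 1.68), at an unadjusted p just under 0.05 and an edgeR adjusted p = 0.905. Below both healthy libraries in both chronic ones lay 4 members, Actg2, Tpm2, Myl9 and Des, against 19.1% of all genes, and none lay above (22.2%). Des had only 10 UMIs over both chronic libraries. It stood at 3.22 and 3.07 CPM there, against 5.25 and 3.55 in healthy and 4.52 and 3.95 in acute libraries. Above both healthy libraries in both acute ones lay 1, Tpm2 (14.3%), and none below (15.1%). Between acute and chronic fibroblasts 2 were higher, Tpm2 and Des (14.8%), and none lower (18.2%), and the members' median log2 differences were 0.15, -0.62 and 0.70 in the same order of comparisons. The second became -0.34 without chronic replicate 1 and -0.30 without integration, a fit from which chronic replicate 2 was left out because it then held 16 fibroblasts. The last became 0.06 without acute replicate 2, 1.20 without acute replicate 1 or with doublets kept, 0.33 without integration (the same fit) and 0.25 with the marker gates. Lmod1 also passed the low-count filter in the fits without chronic replicate 1 and without acute replicate 1, where 10 members were tested. Without integration 9 were tested, of which 8 were among those tested with the classes as clustered. With the marker gates 6 members were tested, Cnn1, Myh11, Lmod1 and Des being too low, and over these 6 the difference of acute from chronic was 0.68 with the classes as clustered.

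Beside these values, acute replicate 2 had the highest fibroblast level of Acta2, Tpm2, Cnn1, Tagln, Lmod1 and Myl9 as well as the highest fibroblast level of Car3, the myofibroblast marker (480.0 CPM against 24.1 to 104). Its part in the fibroblast values was not tested. The median difference of acute from healthy fibroblasts was -0.83 without acute replicate 2, 0.61 without acute replicate 1, -0.14 with a block for the replicate number and, over the 6 members tested there, -0.26 with the marker gates against 0.16 as clustered.

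**Figure D4:**
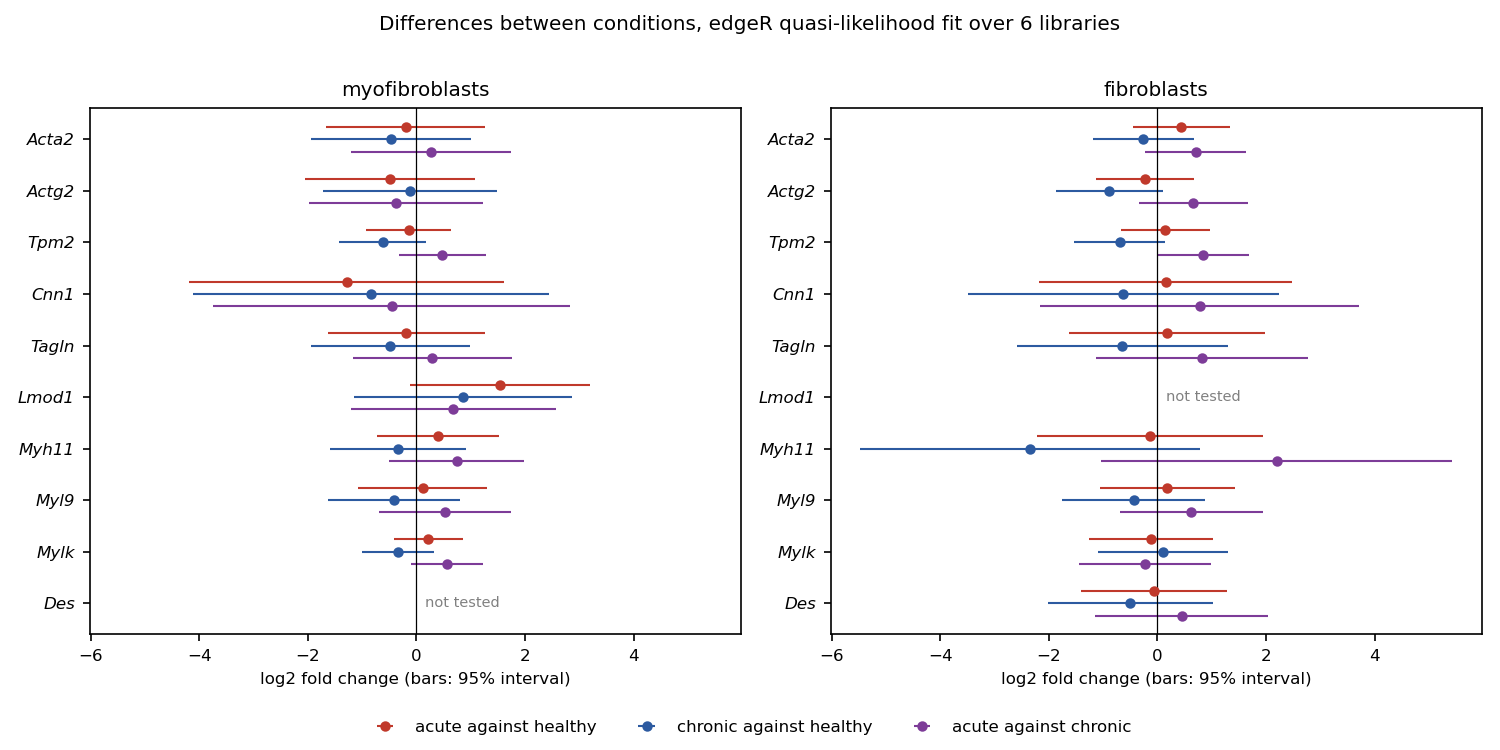
Log2 differences between conditions for each contractile gene in myofibroblasts (left) and fibroblasts (right) from the edgeR fit over 6 libraries, with 95% intervals. The intervals of Tpm2 and Mylk in myofibroblasts are the narrowest and those of Cnn1 span several log2 units, and Des in myofibroblasts and Lmod1 in fibroblasts were too low to test.

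Whether injury moved the members by different amounts in the 2 classes was tested as an interaction, with the library as a block. None of the members passed among 11507 genes, of which 0.0% passed, and at an unadjusted p under 0.05 edgeR counted 364 genes with no member for acute against healthy and 555 with 1 member for chronic against healthy. DESeq2 called 0 and 1 genes and none of the members. The 1 member was Actg2, whose log2 difference of chronic from healthy was -0.12 in myofibroblasts and -0.88 in fibroblasts when each class was fitted alone. In the interaction fit this difference was less negative in myofibroblasts, by 1.21 (log2, SE 0.54, edgeR adjusted p = 0.962). Without healthy replicate 2 this value became 1.98 and passed edgeR's test (adjusted p = 0.0349), as did 0.329% of all genes (40 of 12174), the single case in which a member passed in any setting run. Healthy was then 1 library, assumed to vary like the others. With the marker gates the value was -0.56, 7 of the 9 members changed sign, and the members' median went from 0.22 to -1.01, so the difference had no stable direction.

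The members also differed between the 2 libraries of a condition. In myofibroblasts the median absolute log2 difference between replicates 2 and 1 was 1.23 for the members and 0.37 for all genes tested in healthy, 1.22 and 0.37 in acute, and 1.53 and 0.59 in chronic libraries. In fibroblasts it was 0.41 and 0.29, 0.87 and 0.46, and 0.60 and 0.68. Over the members tested, 7 of 9 were higher in replicate 2 of the healthy myofibroblasts, 8 of 9 in replicate 2 of the acute and 2 of 9 in replicate 2 of the chronic ones. For all genes tested, the median log2 difference of replicate 2 from replicate 1 was 0.05, -0.03 and 0.01 in the same order.

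Within healthy myofibroblasts, Cnn1 differed by 5.38 on the log2 scale between replicates, more than 99.99% of genes, and Actg2 by 2.04. Tpm2 differed by 0.09. Within acute myofibroblasts Cnn1 differed by 2.88, Tagln by 1.88 and Mylk by -0.03. Myl9 differed by -0.26 in healthy and by 0.85 in acute myofibroblasts, the latter more than 83.5% of genes.

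Part of this spread was shared by 2 libraries of like table layout. In myofibroblasts Actg2, Cnn1 and Tagln were lower in both healthy replicate 1 and acute replicate 1, the 2 libraries whose tables omit rarely seen genes, than in each of the other 4 libraries, against 7.87% of all genes with a mean of at least 20 CPM in myofibroblasts. Actg2, Cnn1 and Tagln are listed for all 6 libraries, and CPM were taken over genes listed for all of them. Whether some feature of those 2 libraries played a part was not tested. Between the 2 libraries of like layout, acute and healthy replicate 1, Cnn1 in myofibroblasts differed by 0.81 on the log2 scale, and between replicates 2 by -1.69, so its direction differed. Replicate numbers are not tied to animals in the labels, so these pairs are only 1 way of matching the libraries. Lmod1 was higher in acute in both pairs, by 0.89 and 1.40. Myh11 and Mylk were higher by smaller amounts, which makes 3 of 9 members, beside 23.7% of genes with a mean of at least 20 CPM. Acta2, Actg2, Tpm2 and Tagln were lower in acute in both pairs, by at most 0.72 (4 of 9 members, beside 27.3% of these genes), and Myl9 differed in direction.

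The fibroblast gene Pi16 also varied between the myofibroblasts of the libraries, at 329, 1053, 68.8, 162, 447 and 166 CPM, and was highest in healthy replicate 2, where Acta2, Actg2, Tpm2, Cnn1 and Tagln were highest too. All 9 urothelial markers were counted in myofibroblasts of every library, at a summed 1002 to 5033 CPM. Of the 8 pericyte markers found, Higd1b was at 0 in myofibroblasts of 4 libraries and Kcnj8 of 3, and their sum stood at 213 to 287 CPM, against 2615 and 5135 in mural cells of the acute libraries. Des, high in mural cells, was at or near 0 in myofibroblasts of every library, as was Pln, a gene picked for leading the mural cluster.

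Genes most alike to the members were ranked by Pearson's r with the mean z score of the 10 members over 34 sums of a class in a library, which share libraries and depth. Fbxl22, a muscle F-box gene, was first (r = 0.938), at 95.1 CPM in myofibroblasts, 12.6 in fibroblasts and 364 in mural cells. Tpm1, the alpha-tropomyosin, followed (r = 0.908), then Map1lc3a (0.887), Podxl2 (0.879) and Palld, the actin cross-linker palladin (0.869). Crispld2, the vasopressin receptor gene Avpr1a, Pdgfrb and Rasl11a were also among the first 10 of 6628 genes, at 0.848 to 0.865. Of the members themselves, Myh11 (0.969), Myl9 (0.969) and Tagln (0.963) lay closest to the mean that includes them, and Des farthest (0.663).

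The other genes of the contractile apparatus were read from 6 lists, with edgeR's test in both classes and all comparisons. None of the listed genes passed in either direction, beside the shares of all genes given above. The lists were contraction regulators such as Cald1, Smtn and Rock2 (12 of 12 tested), non-muscle counterparts such as Actb and Myh9 (12 of 12), dense body and adhesion genes such as Flna and Vcl (14 of 18 in myofibroblasts), the serum response factor pathway (7 of 10), calcium and excitation genes (6 of 14) and immediate-early genes (14 of 14). Their median log2 differences of acute from healthy myofibroblasts lay between -0.40 and 0.10. By level, the contraction regulators summed to 3647 to 5423 CPM in myofibroblasts and 3326 to 4176 in fibroblasts, so they separated these classes far less than the members did. The non-muscle counterparts summed to 10982 to 12050 and 9078 to 12728 CPM, which overlap throughout.

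Immediate-early genes such as Fos and Jun, which cells switch on within minutes of many stimuli, had the largest median difference among the lists in myofibroblasts. There 13 of 14 were lower in acute than in chronic libraries, with a median of -0.88, and 6 had an unadjusted edgeR p under 0.05, none of which passed adjustment, against 8.04% of all genes at that unadjusted p. In fibroblasts 13 of 14 were lower too, with a median of -0.43 and 0 at an unadjusted p under 0.05. Their sum stood at 21594, 18077, 19101, 11281, 24315 and 29815 CPM in myofibroblasts, lowest in acute replicate 2 and highest in chronic replicate 2, the library in which Acta2, Myl9 and Tpm2 were lowest. The part of this in the members' levels was not tested.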

How the data were processed

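The authors aligned reads to mm10 with Cell Ranger and deposited whole-number UMI counts by gene and cell for the 6 libraries, not normalized. Rarely seen genes are missing from healthy replicate 1 and acute replicate 1, and the last line of the former, cut short, was left out. Genes listed in all tables (14450) were reduced to 14338 by leaving out mitochondrial and ribosomal genes. Cells had to have more than 500 genes and less than 10% mitochondrial UMIs, and the highest Scrublet scores (scanpy 1.11.5) were removed as doublets at 0.8% per 1000 cells, 4602 of 55398 cells. Libraries were integrated with sctransform 0.4.2 and Seurat 5.3.0 in R 4.3.3 over 3000 features. The members and the genes of all lists but the immediate-early one were kept out of these features. Cells were clustered (leidenalg 0.10.2, 30 components, resolution 0.8), and mesenchymal cells were clustered again. Clusters were named from markers by a rule revised after clusters were seen, and 757 mesenchymal cells stayed unnamed.

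UMIs were summed per library and class (at least 20 cells) and tested by the quasi-likelihood test of edgeR 4.0.16 (filterByExpr, TMM factors, Benjamini-Hochberg adjustment at 0.05), with DESeq2 1.42.0 as an alternative. In simulated data with 200 genes changed 4-fold between acute and healthy, edgeR recovered 58.5% in myofibroblasts (8097 genes) and 52.5% in fibroblasts (11124 genes). The common biological coefficient of variation was 30.1% and 32.5%, and every simulated gene was given it. In myofibroblasts the members differed more between replicates than all genes did (median 1.23 against 0.37 on the log2 scale in healthy, 1.22 against 0.37 in acute). The 58.5% therefore does not give the recovery to be had for the members. Permuting 2 libraries against 2 gives an exact two-sided p of 0.333 at best, so none was run. Poisson and Wilson intervals (95%) cover counting error only. Totals per library were 54604109 to 111985678 UMIs. The members and lists were chosen with earlier results of these data known. All 10 members are named, and of the lists the counts and any gene that passed. From the ranking of genes most like the members, 1 of the first 10 is not reported here. Promoters came from RefSeq, positions and transcripts from GENCODE, both on GRCm38.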

Additional observations from a re-analysis of the deposited data

How the results depend on the processing

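No result changed its direction while passing a test, which says little, since no member passed in the main fit of any comparison. The members' median difference between myofibroblasts and fibroblasts, 3.65, was 3.47 to 3.86 under a stricter cell filter, with doublets kept, without integration and with cells gated by markers alone, and 3.53 to 3.76 with any 1 library left out. No member passed in a condition comparison within a class in any setting run. The number of all genes that passed moved more. For acute against healthy, chronic against healthy and acute against chronic, DESeq2 called 7, 8 and 13 genes in myofibroblasts and 29, 48 and 24 in fibroblasts, and 1 gene in the chronic interaction. Without the low-count filter edgeR called 73, 43 and 117 in myofibroblasts, and 9 and 4 in the first 2 fibroblast comparisons. With marker gates it called 0 for acute against healthy myofibroblasts, 3 for chronic against healthy fibroblasts, and 2 and 17 in the acute and chronic interactions. Without integration the first 2 fibroblast comparisons gave 0 and 2, and under both settings the members' medians moved as given in the report, and with doublets kept the second gave 2. With a library left out, counts ran from 0 to 23, 0 to 4 and 0 to 9 in myofibroblasts, 0 to 17, 0 to 2 and 0 to 7 in fibroblasts, and 0 to 13 and 0 to 40 in the acute and chronic interactions, the last with 0 to 1 members. Uncalled values of members changed sign in 82 of 432 combinations of member, comparison and library left out, and in 46 of 510 combinations under other settings. The 432 include fits that left out a library of neither condition compared. Replicate numbers are not tied to animals in the labels, and deviations of same-numbered libraries correlated at 0.30 and 0.17 between healthy and acute and at -0.23 to 0.10 with chronic, so the numbers were not taken to pair libraries. With the replicate block edgeR called 0 genes for chronic against healthy fibroblasts in place of 1, and kept the 3 and 1 genes called for acute against healthy myofibroblasts and fibroblasts. Levels of Des, and of Cnn1, Lmod1 and Myh11 in fibroblasts, rest on few UMIs, and mural cells allowed no comparison of conditions.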

Other observations

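Outside the classes compared above, the members were also counted in 114 cycling mesenchymal cells that were given no name, led by Ube2c, Birc5 and Top2a. In the 2 libraries with at least 20 such cells, healthy replicate 1 and acute replicate 2, their summed level was 1706 and 4069 CPM, with Acta2 at 268 and 971 CPM and Tpm2 at 859 and 1099.

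In libraries with at least 20 cells, the members summed to 111 to 481 CPM in endothelial cells and 52.5 to 277 in macrophages. They summed to 157 to 443 CPM in NK and T cells and to 454 to 837 in fibroblasts. Mylk, the kinase, averaged 76.7 ± 32.9 CPM in endothelial cells (SD, n = 5 libraries), 22.3 ± 10.9 in macrophages (n = 6) and 20.3 ± 5.83 in NK and T cells (n = 3). In fibroblasts Mylk averaged 53.8 ± 22.7 CPM (n = 6). Cnn1 had 0 of 1226689 UMIs in endothelial cells of all 6 libraries, which allows up to 2.45 CPM, and Des averaged 11.3 ± 18.5 CPM in the 5 libraries, which rested on healthy replicate 1 at 43.3 CPM.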
